A study of Mus musculus with 8 samples.

Results

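The glutamate receptor subunits described here are 4 subunits of AMPA receptors (Gria1, Gria2, Gria3 and Gria4), 3 of NMDA receptors (Grin1, Grin2a and Grin2b) and 2 metabotropic receptors (Grm3 and Grm5). They were chosen by name, and a probe set, the group of short probes that reports 1 transcript on an Affymetrix array, was taken as a member when it carried 1 of these symbols and no other. This gave 9 probe sets of 6 genes among 22626 probe sets: 6 for the AMPA subunits and 3 for Grin2a and Grin2b. For Grin1, Grm3 and Grm5 no probe set carried the symbol, so these genes were not analysed here and no metabotropic subunit among the members has a value.

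RNA came from the hippocampus of the right hemisphere, with 1 array for each of 8 mice. The 4 mutant mice carried the mps allele of Gusb on both chromosomes (mps/mps) and were 19.6 to 38.3 weeks old, and the 4 normal mice were carriers (mps/+) aged 14.6 to 38.3 weeks. All had the strain background B6.C-H2-Kbm1/ByBir and were housed together, with 2 females and 2 males in each group. Gusb encodes the lysosomal enzyme beta-glucuronidase, and mps/mps mice are a model of mucopolysaccharidosis VII. Every normal animal thus carries 1 copy of the mutant allele, and no animal without the allele was compared.

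Glutamate is the main excitatory transmitter of the brain. AMPA receptors are tetramers that carry the fast synaptic current, and the Gria2 subunit, edited in its pore, makes them poorly permeable to calcium. NMDA receptors combine the obligatory Grin1 subunit with Grin2 subunits, open only when glutamate binding and depolarisation coincide, and are required for many forms of synaptic plasticity in the hippocampus. Metabotropic receptors signal through G proteins. Within the hippocampus, pyramidal cells express Gria1 and Gria2 strongly, whereas Gria4 is better known from interneurons and thalamic neurons.

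Of the 6 measured genes, Gria2 and Gria4 had a window in the RefSeq promoter table. Both are shown, since no other measured member had a window. These 2 AMPA subunits parted in the array of mutant 3. It held the highest Gria2 value (on 1421970_a_at, the brighter of its 2 probe sets) and the lowest Gria4 value of all 8 arrays. Each line gives the 250 bases before the start used in that table on GRCm38.p6, 5′ to 3′ on the gene's strand, with capitals marking CG dinucleotides. For Gria2 that start lies inside the annotated gene, whose longest extent begins further upstream. The first lies at chr3:80802836-80803085 and the second at chr9:4796235-4796484, both on the minus strand.
Gria2: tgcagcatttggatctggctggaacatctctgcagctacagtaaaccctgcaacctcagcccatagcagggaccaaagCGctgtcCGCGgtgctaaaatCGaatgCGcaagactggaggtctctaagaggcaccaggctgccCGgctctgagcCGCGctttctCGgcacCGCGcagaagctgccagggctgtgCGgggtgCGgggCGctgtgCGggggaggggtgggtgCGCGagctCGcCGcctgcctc
Gria4: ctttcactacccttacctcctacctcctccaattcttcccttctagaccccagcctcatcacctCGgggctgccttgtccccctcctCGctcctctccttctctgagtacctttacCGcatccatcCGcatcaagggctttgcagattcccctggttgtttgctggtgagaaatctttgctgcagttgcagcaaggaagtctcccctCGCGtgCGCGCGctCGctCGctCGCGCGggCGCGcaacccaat
The Gria2 window held 19 CG dinucleotides and 64.8% G and C, and the Gria4 window held 16 and 58.8%, against medians of 6 and 52.4% over 32851 windows of the same length. A GC box, searched as GGGCGG on both strands, was in neither window and in 32.7% of all windows. The array measures transcripts and carries no reading of these promoters.

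Several arrays stood apart in ways that touch the results below. Gusb was lower in every mutant on 1 probe set (4.36 to 4.71, against 5.40 to 6.56 in normals) and overlapped on the other (5.55 to 6.59, against 5.12 to 6.40). In normal 1 the mean difference between the 3 prime and 5 prime probe sets of actin and Gapdh, a measure of RNA integrity, was 3.58, while the mutants lay at 0.30 to 0.75 and the other normals at 0.22 to 0.35. All 8 arrays are labelled hippocampus, but the mean of 3 CA1 pyramidal genes ran from 7.43 to 9.36 in mutants and from 7.82 to 9.43 in normals. The mean of 8 thalamic and habenular genes ran from 6.58 to 9.74 in mutants and from 6.79 to 9.15 in normals. The mean of 6 hypothalamic genes was 8.90, 6.14, 4.96 and 7.84 in mutants 1 to 4, against 5.57, 9.12, 5.43 and 5.67 in normals 1 to 4. Striatal genes (6 of 10 listed markers measured) averaged 6.60 to 7.70 in mutants, against 7.44 in normal 2 and 9.34 to 10.38 in normals 1, 3 and 4. The mean of 4 dentate gyrus genes was 4.92, 3.72, 6.24 and 3.85 in mutants 1 to 4, against 3.77, 3.76, 4.48 and 3.54 in normals 1 to 4, where the highest bacterial control value was 3.72. Within that list Dsp and Lct were highest in mutants 1 and 3, whereas Prox1 was highest in mutants 2 and 4 (5.08 and 4.83). The mean of 6 choroid plexus genes was also highest in mutants 1 and 3 (8.95 and 8.09). It was 6.09 and 6.16 in mutants 2 and 4 and 5.22 to 6.25 in normals. The mean of 5 meningeal genes was 5.89 to 6.58 in mutants, against 5.06 to 5.74 in normals. Pan-neuronal genes differed less, with means of 9.67 to 10.10 in mutants and 9.58 to 10.15 in normals.

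No subunit probe set passed adjusted p 0.05 between mutant and normal mice, although 8 of the 9 had lower means in mutants. The comparison asks how subunit transcripts of the mutant hippocampus compare with those of the normal one. In limma's moderated test, adjusted by Benjamini-Hochberg over all 22626 probe sets, 0 of 9 members were called, where 0.0884% of all probe sets were (0.0796% higher and 0.00884% lower). At an unadjusted p under 0.05, 1 member passed (Gria4, lower), against 5.95% of all probe sets in either direction, 3.14% as higher and 2.81% as lower. The groups were apart, with all mutants on 1 side of all normals, for 0 of 9 members, where 1.75% of all probe sets had all mutants below and 1.81% all mutants above. The share of all probe sets with lower means in mutants was 52.9%. The median change of the 9 members was -0.39 on the log2 scale, against -0.01 over all probe sets. The members overlap in gene, and probe sets of 1 gene share their transcript, so these counts describe and do not test.

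**Figure D1:**
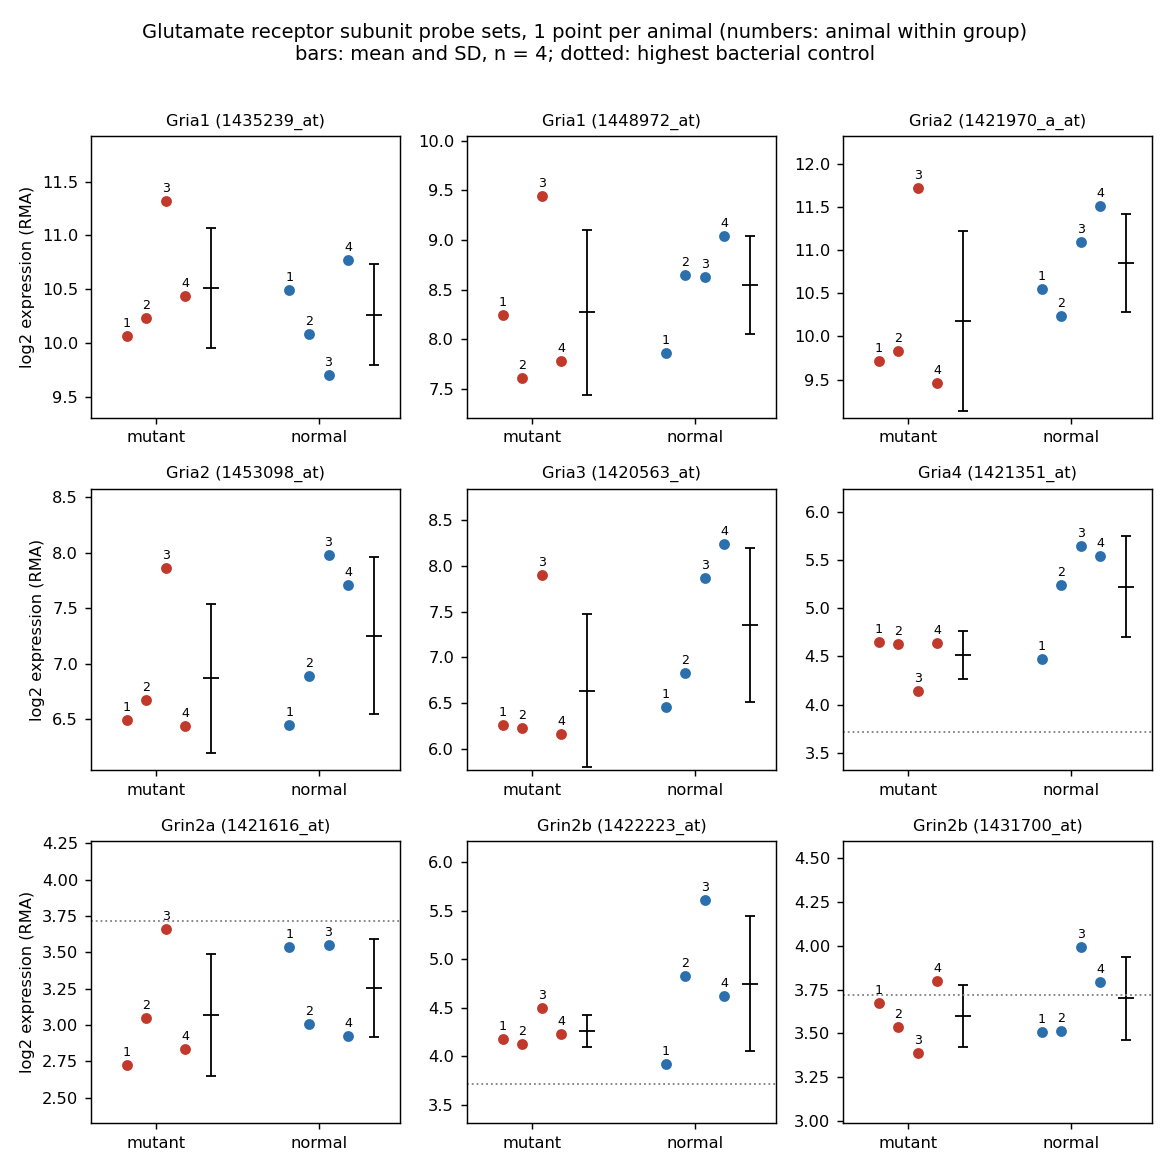
Log2 expression of the 9 subunit probe sets in each animal, 4 mutants on the left and 4 normals on the right of each panel, numbered within the group; bars give mean and SD and the dotted line the highest bacterial control value, 3.72. Mutant 3 lies above the other mutants for Gria1, Gria2 and Gria3 and below them for Gria4, and Grin2a lies under the dotted line in all 8 arrays.

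Gria1 encodes GluA1, the subunit whose insertion at synapses accompanies long-term potentiation, and its 2 probe sets differed in direction. Probe set 1435239_at read 10.07, 10.24, 11.32 and 10.44 in mutants 1 to 4, against 10.49, 10.08, 9.71 and 10.78 in normals 1 to 4. The groups overlapped, with mutant 3 highest and normal 3 lowest. The change was 0.25 ± 0.32 (SE) with a 95% interval from -0.48 to 0.98 (limma adjusted p = 0.944), and without mutant 3 it was -0.02. With the CA1 marker mean as a covariate it was 0.64 (limma unadjusted p = 0.0220, adjusted p = 0.967).

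Probe set 1448972_at of Gria1 read 8.25, 7.61, 9.44 and 7.78 in mutants, against 7.86, 8.65, 8.63 and 9.04 in normals. Mutant 3 was again the highest array, while mutants 2 and 4 and normal 1 were the lowest. Its change was -0.27 ± 0.42 (limma adjusted p = 0.952), with an interval from -1.22 to 0.68. With the CA1 marker mean as a covariate the change of this probe set was 0.10, and without mutants 2 and 4 it was 0.30. Other alternatives moved it the other way: -0.70 with the striatal marker mean, -0.66 without mutant 3 and -0.60 with array weights. The difference between the 2 probe sets, the first minus the second, ranged over 1.82 to 2.65 in mutants, against 1.08 to 2.63 in normals, so they did not order the arrays alike. Normal 1, the array with the 3 prime to 5 prime difference of 3.58, lay at 2.63, and mutants 2 and 4 lay at 2.62 and 2.65. The part of RNA integrity in this was not tested.

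Gria2, the subunit that limits calcium entry, was high in 3 of the 8 arrays on both of its probe sets. Probe set 1421970_a_at read 9.71, 9.83, 11.72 and 9.46 in mutants, against 10.55, 10.24, 11.09 and 11.51 in normals. Mutants 1, 2 and 4 lay below every normal, and mutant 3 lay above every normal. The group means were 10.18 ± 1.04 in mutants and 10.85 ± 0.57 in normals (SD, n = 4 each), a change of -0.67 ± 0.51 (SE) with an interval from -1.83 to 0.49 (limma adjusted p = 0.914).

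The other Gria2 probe set, 1453098_at, read 6.50, 6.67, 7.86 and 6.44 in mutants, against 6.45, 6.89, 7.97 and 7.70 in normals. Mutant 3 and normals 3 and 4 formed the upper values, and the remaining mutants and normals 1 and 2 overlapped at or below 6.89. The change was -0.39 ± 0.42 (limma adjusted p = 0.931). Without mutant 3 the changes of the 2 Gria2 probe sets were -1.18 and -0.72, with limma adjusted p = 0.520 for the first. With the CA1 marker mean as a covariate they were -0.02 and -0.05.

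Gria3, the X-linked AMPA subunit gene that forms receptors together with Gria2, had 1 probe set, 1420563_at. It read 6.26, 6.23, 7.90 and 6.16 in mutants, against 6.46, 6.83, 7.86 and 8.24 in normals. As for Gria2, mutant 3 and normals 3 and 4 stood above all other arrays, and mutants 1, 2 and 4 lay below every normal. The change was -0.71 ± 0.51 (SE) with an interval from -1.88 to 0.46 (limma adjusted p = 0.910). It was -1.13 without mutant 3 and -0.20 with the CA1 marker mean as a covariate.

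Gria4, the subunit known from fast-spiking interneurons and thalamic cells, had the smallest p of the members. Probe set 1421351_at read 4.65, 4.63, 4.14 and 4.64 in mutants, against 4.48, 5.24, 5.64 and 5.55 in normals. All mutants lay below normals 2, 3 and 4, and normal 1 alone overlapped them. Normal 1 is the array with the 3 prime to 5 prime difference of 3.58. The means were 4.51 ± 0.25 in mutants and 5.23 ± 0.53 in normals (SD, n = 4 each), a change of -0.71 ± 0.26 (SE), or 1.64-fold lower in mutants, with an interval from -1.31 to -0.12. The unadjusted limma p was 0.0246 and the adjusted p 0.800. Of all probe sets, 688 had a smaller p.

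Every alternative that gave Gria4 a value kept the sign of its change, which ran from -0.96 without normal 1 to -0.58 without normal 3. In none did it pass (smallest limma adjusted p = 0.153, without normal 1). Leaving out the dimmest 40% of probe sets removed this probe set. With the striatal, CA1 and thalamic marker means as covariates the change was -0.70, -0.88 and -0.72 (limma unadjusted p = 0.170, 0.0151 and 0.0375). The interneuron list (Gad1, Gad2, Slc32a1, Pvalb, Sst and Vip) averaged 7.95 to 9.23 in mutants and 8.96 to 9.85 in normals. Of its 6 genes, 5 had lower means in mutants and 1, Pvalb, a higher one (change 0.53, limma adjusted p = 0.955). Pvalb read 10.27, 10.63, 9.77 and 11.21 in mutants, against 11.26, 10.43, 11.05 and 7.04 in normals. It was thus lowest in normal 4, where Gria4 read 5.55. The part of these genes in the Gria4 difference was not tested. In bulk tissue, fewer cells of a type and less RNA per cell cannot be told apart. All 8 Gria4 values exceeded the highest bacterial control value of 3.72.

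**Figure D2:**
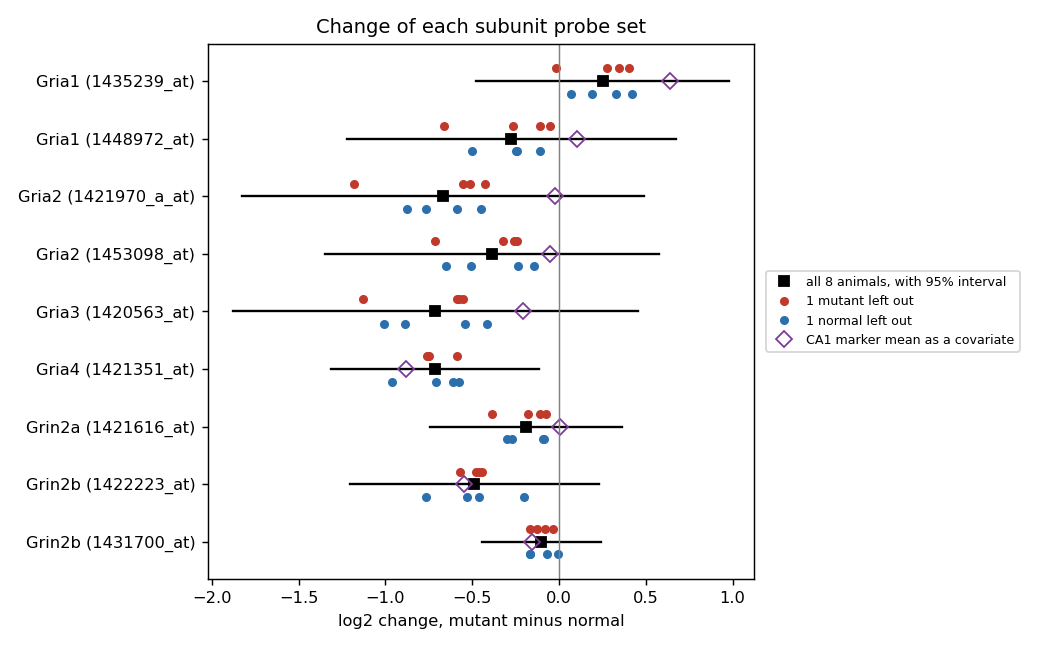
Log2 change of each probe set, mutant minus normal (horizontal axis): squares are the fit to all 8 animals with its 95% interval, red and blue points leave out 1 mutant or 1 normal, and diamonds add the CA1 marker mean as a covariate. Only the Gria4 interval, -1.31 to -0.12, leaves out 0, and leaving out mutant 3 takes Gria2 (1421970_a_at) to -1.18.

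Grin2a encodes GluN2A, the subunit that predominates in mature NMDA receptors. Its only probe set, 1421616_at, read 2.73, 3.05, 3.66 and 2.83 in mutants, against 3.54, 3.01, 3.55 and 2.92 in normals. In 0 of 8 arrays did it exceed the highest value of 27 bacterial control probe sets (3.72, with a median of 2.29). No Grin2a level can therefore be read from this probe set in either group, and its change of -0.19 ± 0.24 (limma adjusted p = 0.946) is a change within the control range.

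Grin2b encodes GluN2B, the subunit that predominates early in development and persists in the adult forebrain. Probe set 1422223_at read 4.18, 4.13, 4.50 and 4.23 in mutants, against 3.92, 4.83, 5.61 and 4.62 in normals. The mutants lay between 4.13 and 4.50, below normals 2, 3 and 4, while normal 1 was the lowest of all arrays. The means were 4.26 ± 0.17 in mutants and 4.75 ± 0.70 in normals (SD, n = 4 each), a change of -0.49 ± 0.31 (SE) with an interval from -1.21 to 0.23 (limma adjusted p = 0.900).

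Normals 1 and 3 weighed most on the Grin2b value, which was -0.76 without normal 1 and -0.20 without normal 3. The other Grin2b probe set, 1431700_at, read 3.67, 3.54, 3.39 and 3.80 in mutants and 3.51, 3.51, 3.99 and 3.79 in normals. It exceeded the highest bacterial control in 3 of 8 arrays, and its change was -0.10 ± 0.15 (limma adjusted p = 0.951). Gria4 and Grin2b shared an arrangement across the arrays: normals 2, 3 and 4 lay above all mutants for both, and normal 1 lay among the mutants for Gria4 and below them for Grin2b.

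Across classes, the 6 AMPA probe sets had a median change of -0.53 (5 lower and 1 higher in mutants), with 0 called. The NMDA class can be set beside it through 1422223_at of Grin2b alone (-0.49), since the other pair of NMDA probe sets lay at or near the range of the bacterial controls. The range over the 8 arrays was 1.69 for that Grin2b probe set and 1.51 to 2.26 for the AMPA probe sets, where the median of all probe sets was 0.76. All 6 AMPA probe sets and this Grin2b probe set ranged over at least 1 log2 unit, as did 34% of all probe sets.

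Unequal change within an array was examined for 2 pairs of subunits, by subtracting the log2 values of their brightest probe sets. Gria1 minus Gria2 was 0.36, 0.41, -0.40 and 0.98 in mutants, against -0.06, -0.15, -1.39 and -0.74 in normals. Mutants 1, 2 and 4 lay above every normal, and mutant 3 lay among the normals. The mean was 0.34 ± 0.56 in mutants and -0.58 ± 0.61 in normals (SD, n = 4 each), a difference of 0.92 (two-sided exact permutation p = 0.0857, 0.171 adjusted over the 2 pairs, smallest possible p = 0.0286). With the mean of both probe sets of each gene the difference was 0.52 (two-sided exact permutation p = 0.171).

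Grin2b minus Grin2a differed by -0.30 between mutants and normals (two-sided exact permutation p = 0.543, also 0.543 adjusted over the 2 pairs). Without normal 1 the difference was -0.67, and its two-sided exact permutation p of 0.0286, not adjusted over the 2 pairs, is the smallest that 4 against 3 animals can give. Grin2a lies within the range of the bacterial controls, so neither value can be read as a change of Grin2b relative to Grin2a.

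In both genotypes, the arrays high and low for Gria2 and Gria3 coincided with differences in regional markers. The 3 arrays with the lowest thalamic and habenular means, mutant 3 (6.58), normal 4 (6.79) and normal 3 (7.37), were the 3 highest for both Gria2 probe sets and for Gria3, and the other 5 arrays had thalamic means of 8.16 to 9.74. Mutants 2 and 4, with the highest thalamic means (9.74 and 9.67), were the 2 lowest arrays for Gria1 (1448972_at) and had the 2 lowest Gria3 values. The CA1 mean was 9.36 in mutant 3, 9.43 in normal 4 and 8.51 in normal 3, and it was also high in normal 1 (9.23), where Gria3 read 6.46. The hypothalamic mean was highest in normal 2 (9.12), mutant 1 (8.90) and mutant 4 (7.84), all among the other 5 arrays. With the thalamic mean as a covariate the Gria2 and Gria3 changes were -0.31, -0.13 and -0.36, against -0.67, -0.39 and -0.71 without it. The striatal mean as a covariate moved them less, to -0.59, -0.34 and -0.70. Gria4 went against the order of Gria2 and Gria3 in mutant 3, where Gria4 was lowest, and with that order in normals 3 and 4, where Gria4 was highest. How far tissue content accounts for the subunit values was not tested.

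**Figure D3:**
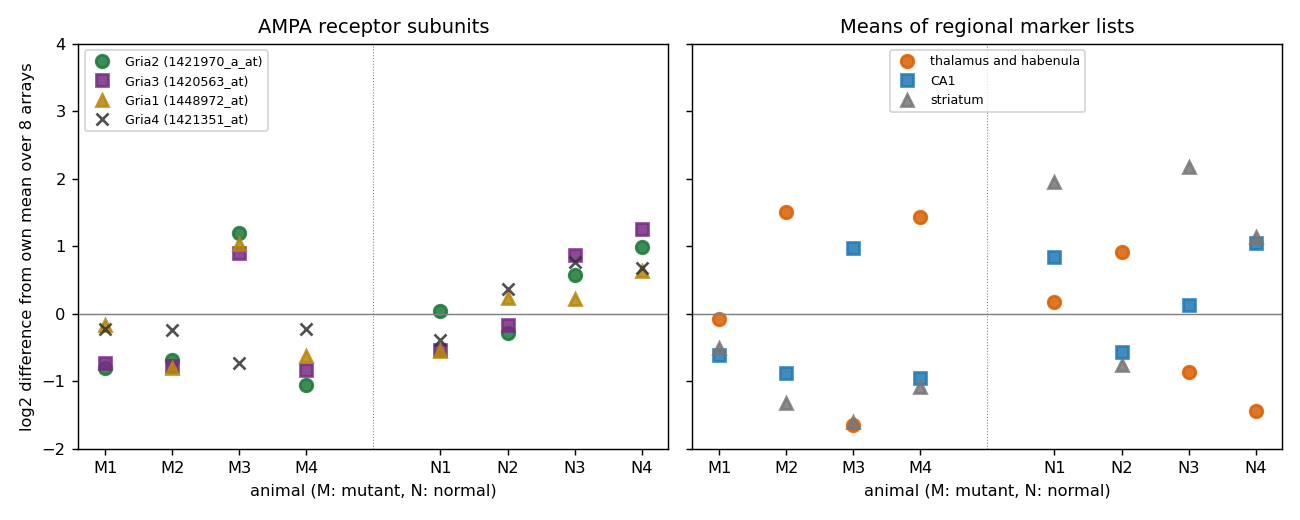
Log2 difference of each array from the item's own mean over the 8 arrays, for 4 AMPA subunit probe sets (left) and the means of 3 regional marker lists (right); M marks mutants and N normals. Gria2 and Gria3 lie above 0.5 in mutant 3 and normals 3 and 4, the 3 arrays where the thalamic and habenular mean lies below -0.5, and Gria4 is lowest in mutant 3.

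Other genes were set against each member by the mean absolute difference between profiles over the 8 arrays, each centred on its own mean, among 8194 genes outside the members. Nearest to Gria2 were Ypel1 (0.16), Arhgap20 (0.16) and the heparan sulfate polymerase gene Ext1 (0.21), where the median gene lay at 0.77. The nearest to Gria3 were Rasgrp1, which encodes a Ras activator (0.16), Sgtb (0.19) and the transcription factor gene Etv5 (0.25), with a median of 0.81. Rasgrp1 read 6.59, 6.94, 8.07 and 6.55 in mutants, against 6.88, 7.01, 8.51 and 8.44 in normals, with the same 3 arrays on top as for Gria3. Each nearest gene was picked from all 8194 by its likeness over these same arrays, so a shared order of arrays follows from the choice.

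Gria1 (1435239_at) was approached most closely by the galactosyltransferase gene B4galt4 (0.12), Sirpa, which encodes a membrane receptor of neurons and phagocytes (0.13), and Mycl (0.14), with a median of 0.42. For Gria4 the closest were Plaat1 (0.16), the mitochondrial transporter gene Abcb8 (0.16) and Prps2, which encodes a phosphoribosyl pyrophosphate synthetase (0.19), with a median of 0.53. Closest to Grin2b were Appbp2 (0.15), the chemokine gene Cx3cl1 (0.15) and the cannabinoid receptor gene Cnr1 (0.15), with a median of 0.49. Cnr1 read 5.31, 4.94, 5.39 and 5.27 in mutants, against 5.42, 5.61, 6.62 and 5.61 in normals. Cnr1, picked for its nearness to Grin2b over the same arrays, had all mutants below all normals, as did 1.75% of all probe sets. Its highest mutant value was 5.39 and its lowest normal value 5.42, and its change was -0.59 (limma adjusted p = 0.840). None of these 15 genes is in the lists of glutamate signalling genes or markers, and none passed adjusted p 0.05 in limma (unadjusted p under 0.05 for Plaat1 alone, 0.0438).

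The remaining receptor subunits showed no shared direction. Of 3 other NMDA subunit genes measured, 2 had higher means in mutants and 1 a lower one (median change 0.01), with 0 called. Grin2c, an NMDA subunit of astrocytes and thalamic neurons, read 6.67, 7.46, 7.04 and 7.72 in mutants, against 6.97, 7.23, 6.66 and 6.16 in normals. Its groups overlapped (change 0.47, limma adjusted p = 0.898), and mutants 2 and 4, with the highest thalamic means, were the highest. Grin2d changed by 0.01 and Grin3b by -0.14 around a mean of 3.57 in mutants and 3.71 in normals, near the bacterial controls.

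Of 5 kainate and delta receptor genes, 3 had higher and 2 lower means (median 0.06), with 0 called. Grik2, a kainate receptor subunit gene, read 6.21, 6.45, 6.60 and 6.11 in mutants, against 6.24, 6.24, 7.30 and 7.60 in normals (change -0.50, limma adjusted p = 0.900). Mutant 3 and normals 3 and 4 were its 3 highest arrays, as for Gria2 and Gria3. Grik1 was at 0.31 and Grik5 at 0.18, and Grm8, the only other metabotropic receptor gene with a value, was at -0.10.

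Auxiliary subunit genes and the list of postsynaptic scaffold and kinase genes gave 0 calls. Of 9 auxiliary subunit genes, 7 had lower means in mutants (median -0.25). Neto1, a kainate and NMDA receptor partner, read 7.68, 6.32, 9.13 and 6.42 in mutants, against 9.73, 6.87, 9.27 and 9.41 in normals. Mutant 3 lay with normals 1, 3 and 4, and normal 2 lay with the other mutants (change -1.44, limma adjusted p = 0.896). The AMPA receptor partners Cacng7 and Cacng4 were at -0.80 and -0.39. For Cacng7, mutant 3 (3.25) lay under the highest bacterial control value of 3.72. Mutants 2 and 4 (3.81 and 3.76) and normals 1 and 4 (3.86 and 3.85) lay near it.

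Among 14 scaffold and kinase genes, 7 had lower and 7 higher means (median -0.02), 0 were called, and 2 had an unadjusted p under 0.05. These were Dlg2, which encodes the scaffold PSD-93 (change -1.25, limma adjusted p = 0.545), and Homer1, which encodes a scaffold of metabotropic receptors (-1.49, adjusted p = 0.829). Dlg2 read 3.59, 3.50, 4.28 and 3.82 in mutants, against 5.56, 4.03, 5.22 and 5.36 in normals, with normal 2 alone below mutant 3. Mutants 1 and 2 lay under the highest bacterial control value of 3.72 and mutant 4 near it. Homer1 read 4.65, 4.48, 6.06 and 4.14 in mutants, against 6.29, 4.60, 7.31 and 7.09 in normals. In both, normals 1, 3 and 4, the arrays with striatal means of 9.34 to 10.38, were above every mutant. The membrane scaffold gene Dlg1 was at -0.54.

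Genes of glutamate transport had 4 higher and 2 lower means of 6 measured (median 0.19), with 0 called. Dimmer probe sets, outside these counts, did not all follow. Slc1a1 was at -0.71 and -0.78 (limma adjusted p = 0.736 and 0.813), against -0.10 on its brightest. Glul was at -0.48 (limma adjusted p = 0.812), against 0.11. The remaining dimmer probe sets of Slc17a6 and Slc1a3 ran from -0.17 to 0.48. The astrocytic uptake carrier gene Slc1a3 was at 0.28, Slc1a6, a carrier gene of Purkinje cells, at 0.61 and the astrocytic carrier gene Slc1a2 at -0.29 (limma adjusted p = 0.896, 0.896 and 0.922). Glial marker means differed between the groups in the same arrays. All 8 astrocyte markers had higher means in mutants (list means of 9.98 to 10.28, against 9.37 to 9.83 in normals), and Gfap was called (limma adjusted p = 0.0152). Of 8 microglial markers, 4 had higher and 4 lower means, and 2 were called higher, Adgre1 and Cd68 (list means of 7.37 to 7.72 in mutants and 6.64 to 7.18 in normals). All 5 oligodendrocyte markers measured, of 6 listed, had lower means, with 0 called (9.61 to 10.46 in mutants and 10.63 to 11.05 in normals). Their part in the subunit and transporter values was not tested.

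**Figure D4:**
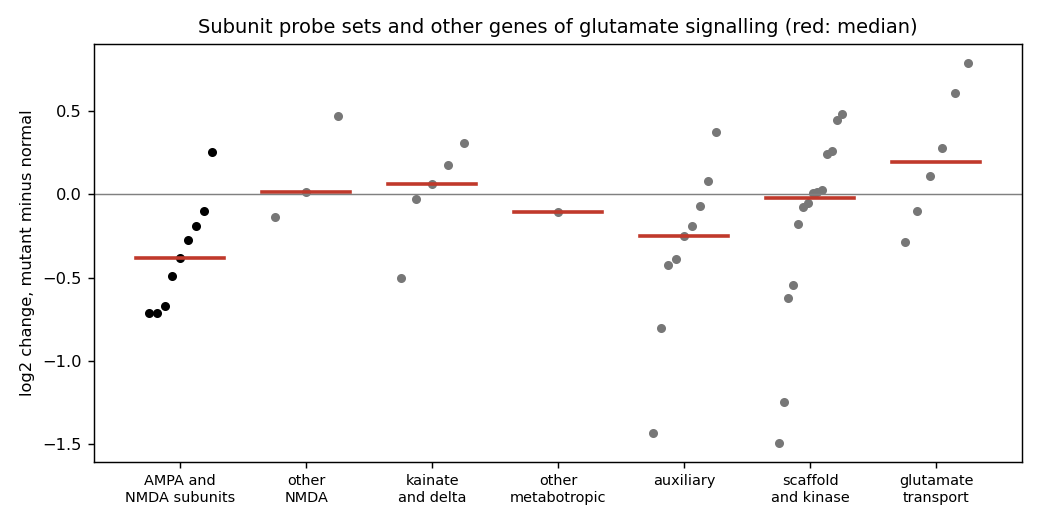
Log2 change, mutant minus normal, of the 9 subunit probe sets (black, left) and of the genes of 6 other lists (grey, 1 probe set per gene), with the median of each in red. Medians run from -0.39 for the subunit probe sets to 0.19 for glutamate transport, and no point shown was called.

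Sex was examined because each group held 2 females and 2 males. The genotype difference was compared between males and females in limma across 4 cells of 2 animals, and 0 of 22626 probe sets passed adjusted p 0.05 (0%), with 10.5% at an unadjusted p under 0.05. None of the 9 members passed either level. The smallest unadjusted limma p among them, 0.0519, was for Gria1 (1435239_at), with an adjusted p of 0.480. Its genotype difference had opposite directions in the sexes, and 1.26 is the gap between the male and female differences. Male mutants read 10.24 and 11.32, above male normals at 10.08 and 9.71. Female mutants read 10.07 and 10.44, below female normals at 10.49 and 10.78. Among the mutants, mutant 3 is 1 of the 2 males and had the highest Gria1 value.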

How the data were processed

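Hippocampal RNA of 4 mutant and 4 normal mice was measured on 1 Affymetrix array per animal. The deposited values are log2 expression per probe set, made by the authors with RMA (GCOS 1.4 is also named, per the submitters' processing notes). Background correction could not be repeated from these values, and RMA compresses changes of dim probe sets. A genome build for the probe sets is not given in the sources used here. Of 22690 probe sets, 64 controls were left out. Of the other 22626, 20380 carried 1 gene symbol, 691 several and 1555 none in the platform annotation. The median log2 value per array was 6.09 to 6.17. Precision is set by the 4 animals per group.

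Mutant minus normal changes were fitted with limma 3.58.1 in R 4.3.3 (lmFit, eBayes) on all probe sets without a filter, with Benjamini-Hochberg adjustment over all of them, and the steps were tested on simulated data. Differences within arrays were tested by a two-sided exact permutation test over 70 arrangements. Lists were described by counts and medians, using the brightest probe set per gene. Members and lists were chosen with earlier results of these data known. The genes named were all members, the 3 of each list with the smallest p, and the 3 nearest to each member that ranged over at least 1 log2 unit, among genes at or above the lowest 40% of means. Figures were drawn with matplotlib 3.10.9.

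The alternatives were further quantile normalization, median centring, leaving out dim probe sets, 1 value per gene (brightest or mean), a trended and robust eBayes step, weighted arrays, age, sex or their combination as covariates, a random block for animals of the same age, marker means as covariates, and leaving out 1 or 2 animals. The labels do not state litters, and p-values reflect the spread between these 8 animals.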

Additional observations from a re-analysis of the deposited data

Results flagged for a closer look

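Within groups of 4, a sample was taken as standing apart when its gap to the nearest other, as a share of the group's range, exceeded Dixon's 95% critical value. Of 90 groups examined (45 items in mutants and in normals), 8 met this, where chance gives about 1 in 20, and the items are not independent. Mutant 3 accounted for 5 of the 8. Among mutants it was highest for both Gria2 probe sets (11.72, with the others at 9.46 to 9.83, and 7.86, with the others at 6.44 to 6.67) and for Gria3 (7.90, with the others at 6.16 to 6.26). It was lowest for Gria4 (4.14, with the others at 4.63 to 4.65) and highest for the scaffold gene Dlg1 (10.02, with the others at 9.30 to 9.42). Normal 2 was lowest among normals for Neto1 (6.87, with the others at 9.27 to 9.73) and highest for the hypothalamic marker mean (9.12, with the others at 5.43 to 5.67). Normal 3 was highest among normals for the interneuron marker mean (9.85, with the others at 8.96 to 9.06).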

How the results depend on the processing

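Under 25 alternatives, 0 member probe sets were called in any, and the smallest limma adjusted p of a member was 0.153. Of 215 member changes recomputed, 7 changed sign, none of them called. Gria1 (1435239_at) was at -0.011 with the mean of all probe sets per gene, between -0.017 and 0.42 with 1 animal left out, and at 0.64 with the CA1 marker mean. Gria1 (1448972_at) was at 0.10 with the CA1 marker mean as a covariate and 0.30 without mutants 2 and 4. Its lowest value under the alternatives was -0.70, with the striatal marker mean. Grin2a was at 0.0087 with the CA1 marker mean and 0.10 without normals 1 and 3, and Grin2b (1431700_at) at 0.15 with the striatal marker mean. The 4 Gria2, Gria3 and Gria4 probe sets and Grin2b (1422223_at) kept their sign in every alternative that gave them a value. With 1 animal left out, Gria2 ran from -1.18 to -0.43 and from -0.72 to -0.15 on its 2 probe sets, Gria3 from -1.13 without mutant 3 to -0.41 without normal 4, and Grin2b (1422223_at) from -0.76 to -0.20. Array weights took them to -1.02, -0.83, -1.10 and -0.88. Over all probe sets, 18 were called higher and 2 lower. Array weights gave 50 and 10, sex 7 and 0, age 10 and 0, both 6 and 0, the striatal marker mean 0 and 0, the CA1 mean 7 and 0, the pan-neuronal mean 10 and 0, the thalamic mean 17 and 1, and the brightest probe set per gene 12 and 1. Leaving out normals 1 and 3 gave 6 and 0, and mutants 2 and 4, 5 and 0. Leaving out 1 animal gave 6 to 15 higher and 0 to 12 lower, the 12 without normal 2. The cause of these shifts was not tested. Grin2b minus Grin2a ran from -0.67 without normal 1 (two-sided exact permutation p = 0.0286, not adjusted over the 2 pairs) to -0.11, on a Grin2a probe set within the control range, and Gria1 minus Gria2 from 0.65 without normal 3 to 1.16 without mutant 3, and 0.52 with the mean of all probe sets, passing in none. No paired analysis was possible because the labels name no pairs. Mutant 1 and normal 1, both females of 38.3 weeks, have neighbouring animal numbers, as do mutant 2 and normal 2, both males of 25.6 weeks. Whether these animals were pairs is not stated.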
